A study of Mus musculus with 18 samples.

Results

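The uninjured left knee of mice whose right knee had been injured was followed from day 1 to day 7. The comparison took the 3 small RNA libraries labelled day 7 left and the 3 labelled day 1 left, 6 of the 18 libraries of the series, and every mature microRNA (miRNA) that passed a filter on low counts. The table held 1412 mature miRNAs, of which 428 passed the filter. All mice were of the C57bl6 genotype and, per the methods of the study, 12-week-old males. In the injured mice a single mechanical load, always applied in the morning under isoflurane, ruptured the anterior cruciate ligament (ACL) of the right knee, and buprenorphine was given at the start of the experiment. The left knee, here called contralateral, received no load, but it came from an anaesthetised and injured animal. The other 12 libraries came from the right knees after the load (3 libraries on each day) and from naive mice that received no load (n = 6). They entered the same fit and served to place the contralateral values.

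Each library was made from femoral condyle cartilage pooled from several mice, so the spread between libraries is a spread between pools. The labels give 4 mice per pool, whereas the scheme of the study gives 2 per pool at day 1 and 4 at day 7. The 2 days were different mice, and pool size, if it differed, cannot be told apart from the day. Per the same scheme, left and right knees of the naive mice were pooled separately, so naive libraries share mice, as do the left and right knees of the injured mice. The labels do not say which, so all libraries were fitted as independent. The p-values may then be too small where shared mice make the libraries of a group alike, or too large for the difference between the knees. The naive libraries carry a day 7 label. Cartilage has few cells and the caps were dissected by hand, so miRNAs of neighbouring tissues can enter. In pooled tissue, fewer cells of a type and less RNA per cell cannot be told apart.

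A miRNA is cut from a hairpin precursor, and either side of the hairpin (the 5p or the 3p arm) can yield a mature strand that is loaded into an Argonaute protein. Bases 2 to 8 of the mature strand, the seed, pair with target messenger RNAs, and miRNAs with the same seed form a family that shares many targets. In cartilage, miR-140 is the classic chondrocyte miRNA, produced from within the Wwp2 gene under the control of the chondrocyte factor Sox9. The contralateral knee is used as an internal control in joint injury models, and a change in it between the days would alter every comparison that uses it.

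The miRNAs that the results turn on are shown first. Their mature sequences came from RefSeq (GRCm38.p6), which held 365 of the 428 tested miRNAs (85.3%), and the seed is in capitals. The first family shares the seed AAAGUGC and is made from the Mir17hg transcript on chromosome 14, from an intron or exon of Mcm7 on chromosome 5 and from a cluster on the X chromosome. It is shown because 5 of its members were among the miRNAs with the lowest p-values and a lower level at day 7.
miR-17-5p: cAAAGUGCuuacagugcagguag
miR-20a-5p: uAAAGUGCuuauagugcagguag
miR-20b-5p: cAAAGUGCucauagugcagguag
miR-93-5p: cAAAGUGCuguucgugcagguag
miR-106a-5p: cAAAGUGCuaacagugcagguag
miR-106b-5p: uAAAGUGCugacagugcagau
The second family, with the seed AUUGCAC, is shown in part because its members differed in sign. Of its 5 tested members 4 had negative changes, and miR-32-5p was the exception.
miR-25-3p: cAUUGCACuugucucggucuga
miR-92a-3p: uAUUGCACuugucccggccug
miR-32-5p: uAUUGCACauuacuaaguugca
The third pair shares the seed GCAGCAU and lies in introns of Pank genes, which encode pantothenate kinases.
miR-103-3p: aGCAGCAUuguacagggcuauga
miR-107-3p: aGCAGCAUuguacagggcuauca
Both arms of the miR-142a hairpin, the leukocyte miRNA in an intron of Mir142hg at chr11:87756864-87756927, are shown because they moved apart in 1 library.
miR-142a-5p: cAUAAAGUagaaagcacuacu
miR-142a-3p: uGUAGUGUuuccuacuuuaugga
Further single miRNAs are shown because they led one or the other direction.
miR-6412: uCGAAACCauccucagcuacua
miR-338-5p: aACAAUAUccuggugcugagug
miR-425-5p: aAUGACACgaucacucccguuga
miR-10a-3p: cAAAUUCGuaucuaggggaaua
miR-152-5p: uAGGUUCUgugauacacuccgacu
miR-362-5p: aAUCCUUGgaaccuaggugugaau
miR-450b-5p: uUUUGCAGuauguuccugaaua
miR-1291: aUGGCUCUuacugaagacuagcaguu
miR-19a-3p: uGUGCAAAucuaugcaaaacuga
miR-29c-3p: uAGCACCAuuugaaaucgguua
miR-144-3p: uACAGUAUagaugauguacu

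The contralateral libraries held between 1249037 and 4088852 counts, at a mean of 2158730 ± 966025 (SD, n = 3) at day 1 and 2669010 ± 1346580 (SD, n = 3) at day 7 (exact permutation test, two-sided, p = 0.60, where the smallest p that 3 against 3 allows is 0.10). Levels are given as CPM, the counts of a miRNA scaled to a common library total, and 3 libraries a day limit the precision of every comparison. One library stood apart. Day 7 contralateral replicate 1 lay at a mean distance of 23.8 from the other 5 contralateral libraries in log2 CPM over the tested miRNAs, whereas each of the others lay between 13.9 and 15.2 from the rest. Its total of 1410173 counts was not the lowest, and a limma fit with quality weights gave it the lowest weight of all 18 libraries (0.148). The mean distance within day 7 was 20.1, within day 1 12.7 and between the days 16. Without this library the last value was 12.2, and the pair of day 7 libraries that remained were 12.1 apart. Libraries of different days were then about as far from each other as libraries of the same day. The main results for the change between the days are therefore given with and without this library.

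The labelled tissue was checked against marker miRNAs. The summed level of the 4 cartilage arms (miR-140 and miR-455) was 7602.95 ± 585.83 CPM at day 1 and 7518.60 ± 2568.42 CPM at day 7 (SD, n = 3 each; exact permutation test, two-sided, p = 0.90). Skeletal muscle miRNAs were far more abundant than these, led by miR-1a-3p, with between 115844 and 200847 CPM in the day 1 libraries and between 154413 and 280436 CPM at day 7, and the highest value was that of day 7 replicate 1. Of the 15 muscle arms in the table, 10 were above 0 in all 6 libraries and 2 were at 0 in all of them. Leukocyte miRNAs summed to between 9701 and 9973 CPM at day 1 and between 9253 and 17001 CPM at day 7, vascular miRNAs to between 53924 and 78836 and between 73447 and 98886 CPM, and epithelial miRNAs to between 211 and 240 and between 225 and 354 CPM (exact permutation test, two-sided, p = 0.40 for each). The highest value of each of these lists was again in day 7 replicate 1. Members of the leukocyte list went both ways there, relative to the mean of the other contralateral libraries (log2). miR-142a-3p was at 1.73 and miR-155-5p at 1.49, but miR-142a-5p at -2.56 and miR-223-3p at -1.42. Neuronal miRNAs summed to 282 CPM in that library, the lowest, against 806 to 1402 CPM in the others. The 2 tested neuronal arms went opposite ways there, with miR-128-3p at -2.17 and miR-9-5p at 0.59 (log2), and the sum is mostly miR-128-3p. The liver miRNA miR-122 was at or near 0, with at most 11 counts in a library. The part of these tissues in the results below was not tested.

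The main question was whether any miRNA of the contralateral cartilage changed between the days. By limma-voom with Benjamini-Hochberg adjustment, 0 of 428 miRNAs (0%) passed an adjusted p of 0.05, and the smallest adjusted p was 0.701. At an unadjusted p under 0.05 there were 25 miRNAs (5.84% of those tested), of which 6 were higher (1.40%) and 19 lower (4.44%) at day 7. The share of 5.84% is close to the 5% that the threshold itself lets through. The split between the directions depended on the tool: edgeR's quasi-likelihood test also called 0 and gave 14 higher and 9 lower at an unadjusted p under 0.05, DESeq2 gave 21 higher and 7 lower, and limma-voom with DESeq2-type size factors gave 10 higher and 13 lower. DESeq2 called 2 miRNAs, miR-199b-5p and miR-1291, which are described below. In 8 miRNAs (1.87%) every day 7 library lay above every day 1 library, and in 29 (6.78%) every day 7 library lay below.

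A missing call does not show that the days were alike, so the 95% intervals of the fold changes were read as well. The median absolute log2 fold change over the 428 miRNAs was 0.27, with a median standard error (SE) of 0.37. For 178 miRNAs (41.6%) the whole interval lay within a 2-fold change in either direction, and for 20 it lay within 1.5-fold. For the remaining miRNAs these libraries could not exclude a 2-fold change. The estimate itself was over 2-fold for 17 miRNAs. Without day 7 replicate 1, 451 miRNAs passed the filter, 0 were called, 20 had an unadjusted p under 0.05 (4 higher, 16 lower), and 217 intervals (48.1%) lay within 2-fold. Of the 25 miRNAs at an unadjusted p under 0.05 and these 20, 6 were in both, 24% of the first list and 30% of the second.

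The positive changes with the lowest p-values, at a mean of at least 10 CPM, were those of 12 miRNAs, miR-142a-3p, miR-152-5p, miR-320-3p, miR-199b-5p, miR-362-5p, miR-450b-5p, miR-32-5p, miR-1291, miR-19a-3p, miR-29c-3p, miR-187-3p and miR-144-3p. miR-142a-3p, a miRNA of white blood cells, stood at 3025, 2305 and 2067 CPM in the day 1 libraries and at 10184, 3298 and 5666 CPM at day 7. All day 7 libraries were above all day 1 libraries, with replicate 1 by far the highest. The log2 fold change was 1.21 (SE 0.45, 95% interval 0.26 to 2.16; limma-voom adjusted p = 0.701), and 0.84 (SE 0.47) without replicate 1. The naive libraries spanned 980 to 4658 CPM, so the day 1 libraries lay inside that range and the highest 2 day 7 libraries above it. Of the 9 tested arms of the leukocyte list, 3 had positive and 6 negative log2 fold changes, with a median of -0.19.

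miR-199b-5p, from the miR-199 family of mesenchymal tissues, was among the miRNAs with the widest spread within day 7. It stood at 308, 535 and 260 CPM at day 1 and at 5026, 414 and 595 CPM at day 7, so replicates 2 and 3 of day 7 overlapped the day 1 values and the naive range of 248 to 634 CPM. The log2 fold change was 1.54 (SE 0.65) in limma-voom and 0.52 (SE 0.46) without replicate 1. DESeq2 gave 2.57 (SE 0.62) with an adjusted p of 0.0134, and over the limma and edgeR alternatives the adjusted p lay between 0.273 and 0.997. miR-1291, from an intron of Kansl2 at chr15:98519762-98519878, behaved alike, with 7.40, 4.73 and 7.37 CPM at day 1 and 100, 7.57 and 11.2 CPM at day 7. Its log2 fold change was 1.5 (SE 0.74), 2.70 (SE 0.72) in DESeq2 with an adjusted p of 0.0345, and 0.56 (SE 0.52) without replicate 1. In both miRNAs 1 library lay far above the other 5. miR-362-5p, from an intron of Clcn5 on the X chromosome, was a further case, at 20.2, 22.6 and 32.8 CPM at day 1 and at 130, 26.3 and 36.2 CPM at day 7, where only replicate 1 and replicate 3 lay above every day 1 library.

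In the other 9 positive changes the value without replicate 1 stayed nearer to the value with it than in these 3 miRNAs. miR-32-5p, the intronic miRNA of Tmem245, stood at 76.4, 142 and 52.3 CPM at day 1 and at 205, 193 and 217 CPM at day 7. The day 7 libraries were the tighter group and all lay above day 1, but within the naive range of 28.3 to 226 CPM. Its log2 fold change was 1.3 (SE 0.63) and 1.33 (SE 0.72) without replicate 1. miR-450b-5p, of the X-linked miR-322 region, was at 37.0, 23.7 and 22.8 CPM at day 1 and at 45.3, 34.4 and 49.5 CPM at day 7, with log2 fold changes of 0.64 (SE 0.30) and 0.63 (SE 0.32). miR-152-5p, from an intron of Copz2, had 0.61 (SE 0.24) and 0.51 (SE 0.25), and miR-320-3p had 0.58 (SE 0.24) and 0.44 (SE 0.24). None of the 4 passed the adjusted threshold of limma-voom in either fit.

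The 4 remaining positive changes, of miR-19a-3p, miR-29c-3p, miR-187-3p and miR-144-3p, had log2 fold changes of 0.78, 0.82, 0.59 and 0.86 and of 0.61, 0.51, 0.42 and 0.63 without replicate 1. miR-144-3p is an erythroid miRNA that is transcribed together with miR-451a. It stood at 269, 272 and 159 CPM at day 1 and at 602, 229 and 525 CPM at day 7, whereas miR-451a was at 1125, 2163 and 1169 CPM and at 3042, 1610 and 1147 CPM. The groups overlapped for both.

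The 12 negative changes of lowest p were miR-6412, miR-106a-5p, miR-338-5p, miR-17-5p, miR-25-3p, miR-107-3p, miR-93-5p, miR-20b-5p, miR-106b-5p, miR-421-3p, miR-425-5p and miR-10a-3p. Their log2 fold changes lay between -1.22 and -0.58, and in 11 of the 12 all day 7 libraries lay below all day 1 libraries, beside 6.78% of all miRNAs. The 12 were chosen by their p in this same contrast, so a high share is a product of the choice. Without replicate 1 all 12 kept a negative sign, but the values shrank to between -0.84 and -0.17. miR-6412 shrank little without replicate 1. It was at 38.5, 79.7 and 31.5 CPM at day 1 and at 24, 26.1 and 25 CPM at day 7. Its 3 day 7 libraries were nearly equal and lay below the naive range of 32.4 to 49.8 CPM. The log2 fold change was -0.89 (SE 0.30, 95% interval -1.52 to -0.27; limma-voom adjusted p = 0.701) and -0.84 (SE 0.31) without replicate 1. It rested largely on the highest day 1 library instead, and was -0.44 without day 1 replicate 2.

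**Figure D1:**
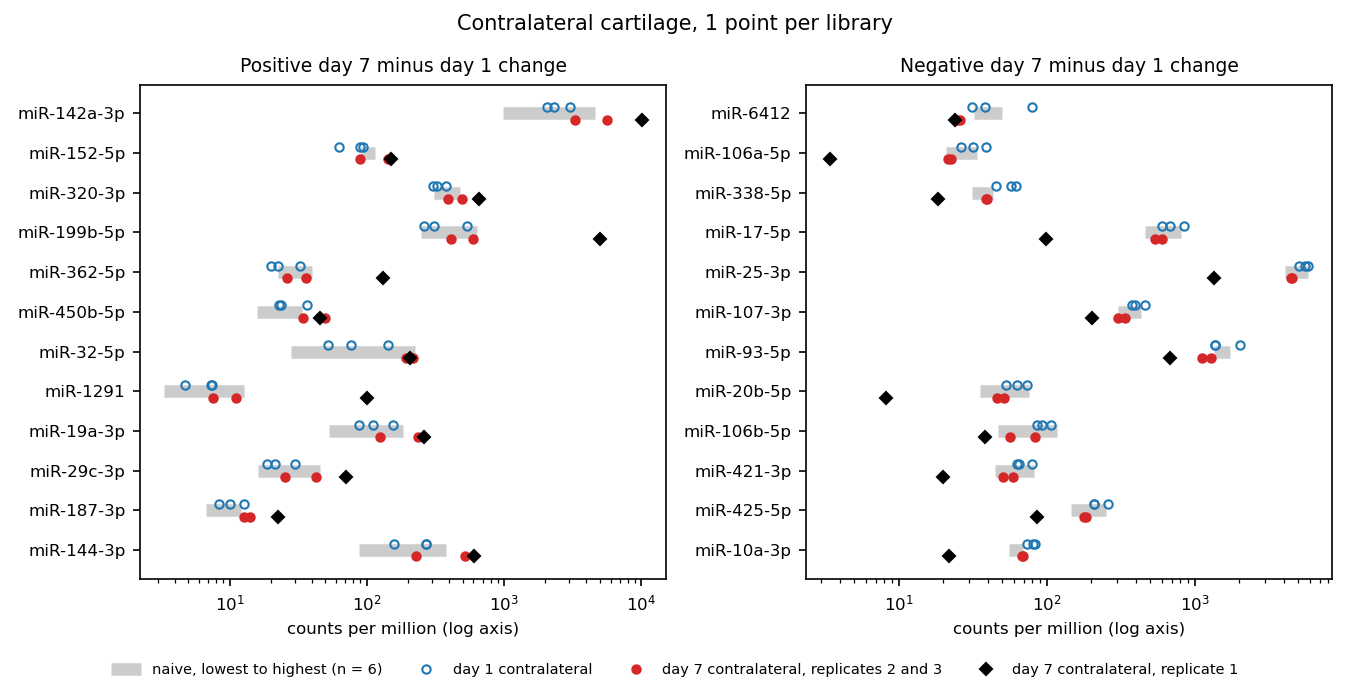
Level in CPM (log axis) of the 12 miRNAs with the lowest p among positive changes (left) and among negative changes (right), with 1 open circle per day 1 library, 1 filled circle for each of day 7 replicates 2 and 3, a black diamond for day 7 replicate 1 and a grey bar from the lowest to the highest of the 6 naive libraries. The diamond lies far from the filled circles for miR-199b-5p (5026 against 414 and 595) and miR-17-5p (98.9 against 537 and 601), and beside them for miR-32-5p and miR-6412.

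The miR-17 seed family, whose clusters promote cell proliferation and are targets of Myc, was the family with most members among the negative changes. The list of the miR-17/92 cluster and its paralogs held 19 tested arms, of which 6 were lower at an unadjusted p under 0.05, beside 4.44% of all miRNAs, and none was higher. In 6 of the 19 every day 7 library lay below every day 1 library, beside 6.78% of all. The median log2 fold change of the list was -0.32, and -0.27 without replicate 1, beside -0.07 and 0.02 over all tested miRNAs. The list was written with earlier results of these data known, and 0 of its members passed the adjusted threshold. The members with the seed AAAGUGC have nearly the same sequence, so reads could be shared between them in the counting, and they are not independent measurements. The summed level of the list was 9511, 10234 and 11688 CPM at day 1 and 5167, 8322 and 8777 CPM at day 7. All 3 day 7 sums lay below all day 1 sums (exact permutation test, two-sided, p = 0.10, the smallest value possible), and 2 of them within the naive range of 8061 to 10597 CPM. The sum of every list with tested members was compared in this way, and only this list and the erythroid list reached that value. Since the list was written with earlier results known, this p is no separate test of it. The sum includes miR-25-3p, which has another seed, at a mean of 4460 CPM over the contralateral libraries.

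Within the family the size of the difference rested on day 7 replicate 1. miR-17-5p, from the Mir17hg transcript at chr14:115043671-115043754, was at 598, 684 and 848 CPM at day 1 and at 98.9, 537 and 601 CPM at day 7, so replicates 2 and 3 were just under or within the day 1 values. The log2 fold change was -1.13 (SE 0.44), and -0.27 (SE 0.26) without replicate 1. miR-106a-5p stood at 31.6, 26.6 and 38.9 CPM at day 1 and at 3.43, 22.4 and 21.6 CPM at day 7, and miR-20b-5p at 52.8, 63.3 and 73.7 CPM and at 8.24, 46.2 and 51.2 CPM. Both come from the cluster on the X chromosome, and both were lowest in replicate 1. miR-93-5p and miR-106b-5p, from the Mcm7 gene, were at 1372, 1378 and 2017 CPM against 683, 1115 and 1293 CPM, and at 85.8, 107 and 93.1 CPM against 38.5, 56.9 and 84.0 CPM. For these 4 miRNAs replicates 2 and 3 also lay below every day 1 library. Without replicate 1 the 6 members with this seed all had negative log2 fold changes, between -0.48 and -0.27, in the same direction in 6 of 6, yet they are near copies of each other and rest on the same 2 day 7 libraries.

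miR-20a-5p, the sixth member, went the other way in replicate 1. It was at 1047, 1214 and 1325 CPM at day 1 and at 1533, 859 and 1015 CPM at day 7, so replicate 1 was the highest contralateral library for miR-20a-5p and the lowest for miR-17-5p. Both are cut from the same transcript, and they differ at 2 of 23 positions, C1U and C12U, counted from 1 at the 5′ end with the base of miR-17-5p first. Relative to the mean of the other 5 contralateral libraries, replicate 1 was at -2.69 (log2) for miR-17-5p, -2.68 for miR-106a-5p, -2.64 for miR-20b-5p, -1.10 for miR-106b-5p, -1.04 for miR-93-5p and 0.51 for miR-20a-5p.

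Members of the AUUGCAC family also parted, with 4 of 5 tested members negative in both fits and miR-32-5p the exception. miR-25-3p, cut from an exon of Mcm7, stood at 5033, 5545 and 5787 CPM at day 1 and at 1360, 4574 and 4461 CPM at day 7. Its log2 fold change was -0.81 (SE 0.32), and -0.23 (SE 0.19) without replicate 1, while miR-32-5p with the same seed was higher in all 3 day 7 libraries, as given above. miR-92a-3p was at 174, 230 and 222 CPM at day 1 and at 247, 200 and 134 CPM at day 7, with overlapping groups. miR-107-3p, of the Pank1 intron, was at 396, 374 and 464 CPM against 201, 301 and 340 CPM, and miR-103-3p at 2227, 2105 and 2629 CPM against 1392, 1692 and 2105 CPM. The log2 fold changes of this pair were -0.58 (SE 0.23) and -0.43 (SE 0.20), and -0.32 (SE 0.22) and -0.26 (SE 0.19) without replicate 1.

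**Figure D2:**
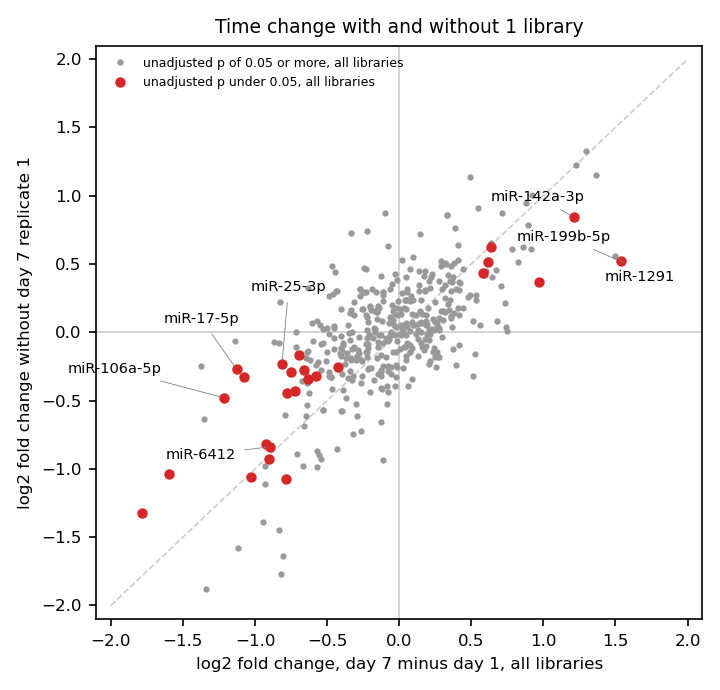
Log2 fold change (day 7 minus day 1, contralateral) of each tested miRNA in the fit of all libraries (horizontal) and without day 7 replicate 1 (vertical), with the 25 miRNAs of unadjusted p under 0.05 in red and the line of equal values dashed. miR-6412 lies on the line (-0.89 and -0.84), whereas miR-17-5p (-1.13 and -0.27) and miR-199b-5p (1.54 and 0.52) lie off it toward 0.

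The balance of the arms within a hairpin was examined because the arms of 1 precursor share their transcription. Over 35 hairpins with both arms at a mean of at least 50 CPM, the log2 ratio of the 5p to the 3p arm in replicate 1 of day 7 differed from the median of the other 5 libraries by 1.07 in the median hairpin, against 0.21 to 0.36 in each of the other contralateral libraries. It differed by over 2-fold in 20 of the 35 hairpins and by over 4-fold in 10, whereas each other library had between 0 and 4 hairpins over 2-fold and 0 over 4-fold. For miR-142a the log2 ratio was -7.25 in replicate 1 and between -3.29 and -2.69 in the other 5 libraries, where miR-142a-5p was at 65.9 CPM against 272 to 684 CPM in the others. For miR-199b it was -1.25 against -6.04 to -5.32, but the 3p arm of miR-199b has the same counts as that of miR-199a and cannot be assigned to 1 hairpin. miR-126a was shifted to 3p by 2.55, and miR-27a, miR-455 and miR-10a to 5p by 2.35, 2.32 and 2.17. The shift was thus in either direction, and it was seen in a cartilage (miR-455), a leukocyte (miR-142a) and a vascular hairpin (miR-126a). Other hairpins of these lists differed from them. The leukocyte miR-223 and the vascular miR-145a were shifted to 5p by only 0.43 and 0.56, and the cartilage miR-140 to 3p by 1.65.

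The bases of the mature strand were then compared with the departure of each library from all the others, a description chosen after the data had been seen. Over the 365 miRNAs with a sequence, the Spearman correlation between the number of CA dinucleotides and the departure was -0.42 in day 7 contralateral replicate 1 and between -0.12 and 0.19 in the other 17 libraries. CA was 1 of 16 dinucleotides scanned, and for the other 15 the correlation in this library lay between -0.18 and 0.20. The points are miRNAs of 1 library, which share its total and base composition, so no p is given. The 88 miRNAs with no CA had a median departure from the other 5 contralateral libraries of 0.51 (log2), the 131 with 1 CA 0.06, the 75 with 2 CA -0.48 and the 71 with 3 or more -0.90. GC content showed no such relation in this library (0.004), while the correlation with GC content was -0.51 in day 7 contralateral replicate 3, and 0.54 and 0.58 in 1 naive and 1 injured library.

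The departure by CA content can be read in the sequences, shown here with CA in capitals.
miR-17-5p: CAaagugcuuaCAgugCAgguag
miR-20a-5p: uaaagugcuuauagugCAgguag
miR-142a-5p: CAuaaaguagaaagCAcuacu
miR-142a-3p: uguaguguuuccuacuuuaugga
The low strand of each pair in replicate 1 (miR-17-5p and miR-142a-5p) held 3 and 2 CA, and the high strand 1 and 0. Among 11 hairpins with more CA in the 5p arm, 9 were shifted to the 3p arm in this library, and among 11 with more CA in the 3p arm, 3 were. The 5 with equal CA in both arms had a median shift of 1.45 (log2) toward 5p, beside 1.52 with more CA in 3p. Of these 5, 1 was shifted to the 3p arm. CA was picked from the departures of this same library, so these counts do not test the relation separately. The relation had exceptions: miR-32-5p with 3 CA and miR-19a-3p with 2 CA were higher in replicate 1 than the mean of the others, by 0.78 and 0.96 (log2), and miR-214-3p with 6 CA was at 0.16. First bases differed too, with a median departure of -0.61 for the 74 miRNAs that start with C and of 0.08 for the 151 that start with U. Of the 22 miRNAs with a sequence and an unadjusted p under 0.05, 13 held 2 or more CA, as did 146 of all 365 (40%). All 13 were lower at day 7, as were 18 of the 22. After each CA class of each library had been centred, limma-voom called 0 of 365 miRNAs and 23 had an unadjusted p under 0.05 (9 higher, 14 lower). miR-17-5p then had a log2 fold change of -0.80, miR-107-3p of -0.25 and miR-6412 of -0.68. What set this library apart was not tested.

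**Figure D3:**
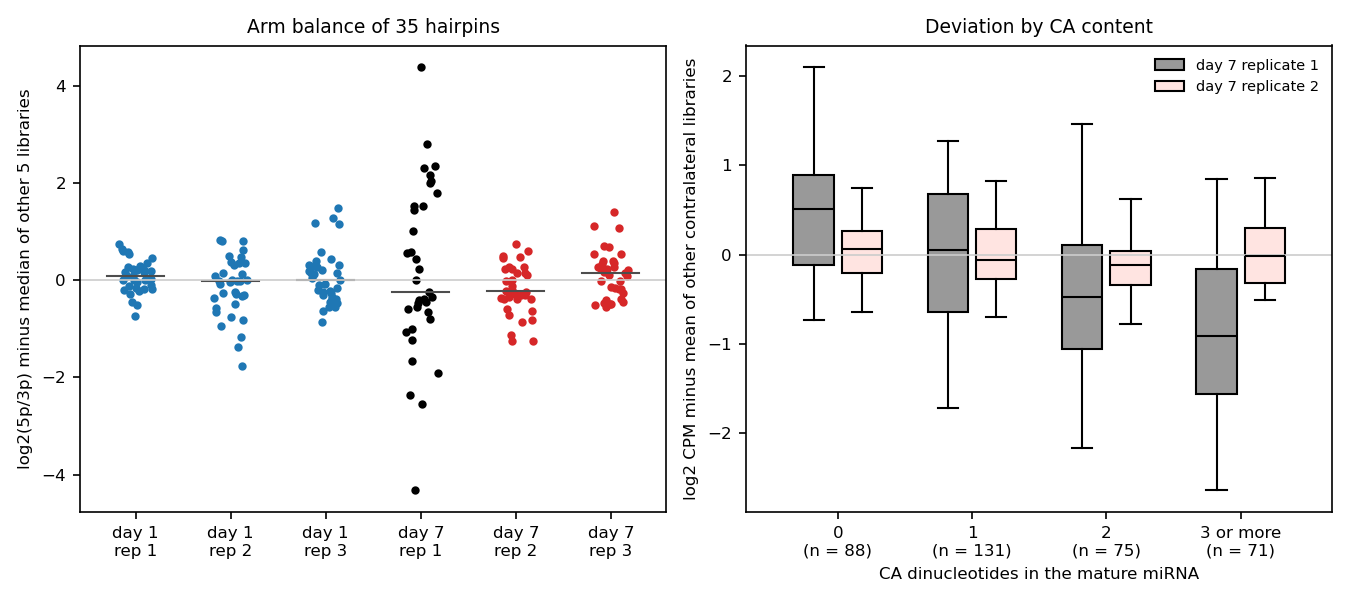
Left, log2 ratio of 5p to 3p arm minus the median of the other 5 libraries for 35 hairpins in each contralateral library (points are hairpins, bars are medians), which spans -4.33 to 4.40 in day 7 replicate 1 and -1.77 to 1.48 over the other libraries. Right, log2 CPM minus the mean of other contralateral libraries by the number of CA dinucleotides, for day 7 replicate 1 against the other 5 (grey) and for day 7 replicate 2 against the 4 libraries other than replicate 1 (pink), with boxes from the 25th to the 75th percentile and whiskers from the 5th to the 95th, where the grey median falls from 0.51 with no CA to -0.90 with 3 or more.

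Without day 7 replicate 1, other miRNAs led. They were looked up after this fit had been seen and are a description. miR-6937-5p, from an intron of Adi1, was at 30.6, 45.9 and 37.5 CPM at day 1 and at 66.6, 12.8 and 14.1 CPM at day 7. Replicates 2 and 3 lay below every day 1 library and replicate 1 above all of them, and without replicate 1 the log2 fold change was -1.45 (SE 0.38; limma-voom adjusted p = 0.494). miR-296-5p stood at 23.2, 30.2 and 24.1 CPM against 30.2, 15.1 and 10.4 CPM, and miR-410-3p, of the imprinted 12qF1 cluster, at 21.7, 14.9 and 19.4 CPM against 22.7, 8.87 and 10.8 CPM. In the other direction, miR-497a-5p was at 142, 134 and 143 CPM against 30.9, 193 and 272 CPM, and miR-195a-3p at 76.9, 73.1 and 57.0 CPM against 34.3, 139 and 88.2 CPM. The hairpins of these miRNAs lie next to each other on chromosome 11 (chr11:70234717-70234800 and chr11:70235042-70235135), and both belong to the cluster that restrains the cell cycle. Their log2 fold changes without replicate 1 were 0.74 (SE 0.30) and 0.72 (SE 0.28), and neither passed the adjusted threshold of limma-voom. Replicate 1 was the lowest library for both, and with it the values were -0.23 (SE 0.51) and 0.15 (SE 0.37).

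The erythroid list had the lowest median of the lists in both fits. Of 7 tested arms, 5 had negative log2 fold changes, with a list median of -0.41 beside -0.07 over all miRNAs, and without replicate 1 the median was -0.57 with 6 negative, beside 0.02 over all. Of the 7 arms, 4 are from miR-486a and miR-486b, while miR-144-3p and miR-451a had positive values of 0.86 (SE 0.47) and 0.30 (SE 0.41). miR-486a-5p, which has the same counts as miR-486b-5p, was at 5430, 5173 and 6333 CPM at day 1 and at 4355, 4173 and 3230 CPM at day 7. All day 7 libraries were below all day 1 libraries, with replicate 1 the nearest to day 1. The log2 fold change was -0.53 (SE 0.26; limma-voom adjusted p = 0.701) and -0.57 (SE 0.26) without replicate 1, and the naive libraries spanned 3937 to 6939 CPM. The summed erythroid level was 14413 ± 916 CPM at day 1 and 11273 ± 2084 CPM at day 7 (SD, n = 3 each; exact permutation test, two-sided, p = 0.10). How much blood the caps held was not measured, and its part in these values was not tested.

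The cartilage miRNAs did not separate the days. miR-140-5p was at 5437, 4093 and 4053 CPM at day 1 and at 1912, 4983 and 6916 CPM at day 7, and miR-140-3p at 2595, 3057 and 2831 CPM and at 2873, 2082 and 2958 CPM. The log2 fold changes were -0.13 (SE 0.38, 95% interval -0.92 to 0.66) and -0.12 (SE 0.22, -0.58 to 0.33). Without replicate 1 they were 0.41 (SE 0.32) and -0.16 (SE 0.23), so the sign of miR-140-5p rested on that library. Both intervals from all libraries lay within 2-fold. miR-455-5p, from the Col27a1 locus, was at 146, 149 and 127 CPM against 212, 143 and 220 CPM, and miR-455-3p at 74.0, 145 and 101 CPM against 33.0, 159 and 65.7 CPM. All groups overlapped.

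The most abundant miRNAs had among the narrowest intervals where libraries agreed. let-7i-5p was at 56573, 45863 and 55059 CPM at day 1 and at 69725, 46579 and 62052 CPM at day 7, with a log2 fold change of 0.16 (SE 0.18, 95% interval -0.22 to 0.54). The let-7 family restrains growth and marks differentiated cells, and 15 of its 19 tested arms had positive changes, with a median of 0.05. let-7f-5p and let-7c-5p had log2 fold changes of 0.01 (SE 0.20) and 0.05 (SE 0.19), whose signs depended on the setting, and let-7g-5p of -0.34 (SE 0.23). miR-126a-3p, the endothelial miRNA of the Egfl7 gene, gave 0.35 (SE 0.24, -0.16 to 0.86), and miR-99a-5p -0.14 (SE 0.30), which was 0.18 without replicate 1. miR-26a-5p was at 93501, 73398 and 72536 CPM against 22977, 75868 and 84923 CPM, so that its -0.55 (SE 0.31) became 0.05 (SE 0.15) without replicate 1.

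Some abundant miRNAs differed widely within a day. miR-148a-3p ranged from 54970 to 245026 CPM over the day 1 libraries and from 35116 to 194254 CPM over the day 7 libraries, and from 41454 to 251151 CPM over the naive ones. Its log2 fold change of -0.08 had an interval of -1.49 to 1.33, so for this miRNA, the second most abundant of the contralateral libraries, the interval reached past 2-fold in both directions. miR-1a-3p of muscle was at 174696, 154890 and 100105 CPM against 234097, 132165 and 152383 CPM, with 0.26 (SE 0.47), and miR-1b-5p had 0.23 (SE 0.51). miR-136-5p, of the 12qF1 cluster, ranged from 26.1 to 232 CPM within day 1, and miR-335-5p, from an intron of the imprinted Mest gene, from 0.69 to 19.5 CPM within day 7, where the low value was that of replicate 1. miR-543-3p showed the same within day 7, at 4.12, 60.3 and 33.3 CPM. miR-3473b, miR-3473e and miR-7667-5p were highest in day 1 replicate 2, at 37.1, 33.5 and 40.8 CPM, which was over the naive maximum of each.

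The 4 miRNAs that the study names among its abundant and differing miRNAs, of which miR-21a-5p and miR-27b-3p are known to respond to mechanical load, did not pass the test in the contralateral knee. miR-199a-5p was at 7158, 6378 and 7079 CPM at day 1 and at 3260, 7148 and 9505 CPM at day 7, with a log2 fold change of -0.16 (SE 0.28, 95% interval -0.74 to 0.42), and 0.29 (SE 0.21) without replicate 1. miR-199a-3p, whose counts are those of miR-199b-3p as well, had -0.16 (SE 0.31) and 0.15 (SE 0.29). miR-21a-5p, a miRNA of fibrosis and inflammation, was at 6601, 8815 and 7057 CPM against 7532, 7183 and 11871 CPM, with 0.21 (SE 0.35). miR-27b-3p was at 13179, 16943 and 12797 CPM against 11980, 14879 and 15680 CPM, with -0.01 (SE 0.23, -0.49 to 0.48). miR-214-5p and miR-214-3p, from the Dnm3os transcript that also yields miR-199a, had 0.41 (SE 0.29) and 0.15 (SE 0.28).

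Smaller families were described member by member. In the miR-29 family, which represses collagen genes, 4 of 5 tested arms had positive log2 fold changes, of 0.36 for miR-29a-3p, 0.72 for miR-29b-3p, 0.82 for miR-29c-3p and 0.41 for miR-29c-5p, while miR-29b-2-5p had -0.06. The list median was 0.41, and 0.11 without replicate 1, which at 5807 CPM held the highest miR-29a-3p of the 6 libraries, against 2787 to 3459 CPM in the others. The p53-regulated miR-34 family had values of 0.31 (miR-34c-5p), 0.40 (miR-34c-3p), -0.01 (miR-34b-5p), -0.33 (miR-34b-3p) and 0.06 (miR-34a-5p). The Hox-embedded miR-10 and miR-196 miRNAs had log2 fold changes of -0.01 (SE 0.20) for miR-10b-5p, 0.01 (SE 0.20) for miR-10a-5p, 0.00 (SE 0.32) for miR-196a-5p, -0.18 (SE 0.40) for miR-10b-3p and 0.42 (SE 0.24) for miR-196b-5p. The lowest of this list was miR-10a-3p, at 83.3, 73.1 and 81.1 CPM against 22, 69.1 and 68.2 CPM, with -0.70 (SE 0.32). The 4 tested epithelial arms (miR-200a-3p, miR-200b-3p, miR-200c-3p and miR-203-3p) lay between 0.14 and 0.26, miR-128-3p was at 1347, 773 and 1058 CPM against 227, 1010 and 999 CPM with -0.71 (SE 0.41), and miR-9-5p had 0.15 (SE 0.38).

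The larger lists are given by their medians. The 48 tested arms of the imprinted 12qF1 cluster had a median log2 fold change of -0.18, and -0.06 without replicate 1, and 3 of the 48 were lower and 0 higher at an unadjusted p under 0.05, a share near the 4.44% lower and 1.40% higher of all miRNAs. The Sfmbt2 cluster (23 arms) had -0.11 and 0.16, the miR-30 family (12 arms) -0.05 and -0.01, mechanosensitive miRNAs (10 arms) 0.03 and -0.01, inflammatory miRNAs (11 arms) -0.08 and -0.12, leukocyte miRNAs (9 arms) -0.19 and -0.12, vascular miRNAs (8 arms) -0.02 and 0.04 and skeletal muscle miRNAs (8 arms) 0.27 and -0.01. In each case 0 members passed the adjusted threshold. The muscle list was positive in 7 of 8 arms with replicate 1 and in 4 of 8 without it.

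**Figure D4:**
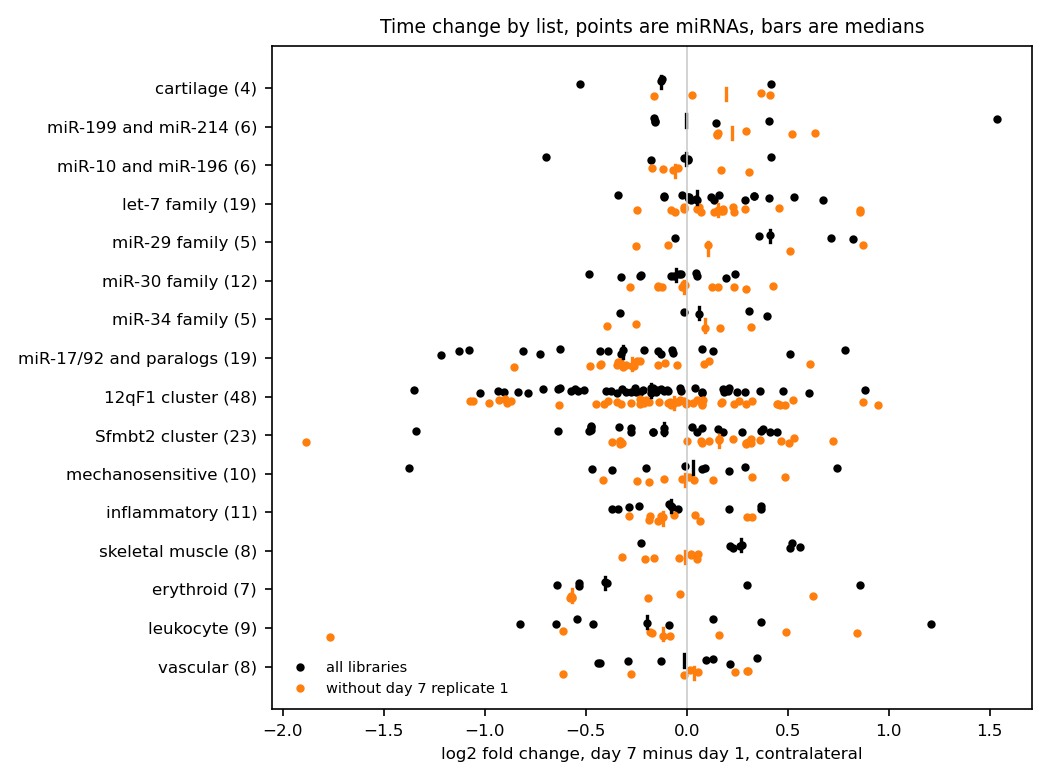
Log2 fold change (day 7 minus day 1, contralateral) of every tested member of 16 lists, with the number of members in brackets, from the fit of all libraries (black) and without day 7 replicate 1 (orange), where vertical bars are list medians. The medians of the miR-17/92 list (-0.32 and -0.27) and of the erythroid list (-0.41 and -0.57) lie below 0 in both fits, whereas those of the muscle, cartilage and Sfmbt2 lists lie on either side of 0.

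In the injured knee many miRNAs changed over the same interval. There, 67 of 428 miRNAs (15.7%) passed an adjusted p of 0.05 in limma-voom, 52 higher and 15 lower at day 7. In the contralateral knee the 52 had a median log2 fold change of -0.12, with 19 positive and 1 higher at an unadjusted p under 0.05, and the 15 had a median of -0.26. Over all 428 tested miRNAs the contralateral median was -0.07, with 187 positive and 6 higher at an unadjusted p under 0.05. Without replicate 1 the medians of the 52 and the 15 were 0.05 and -0.32, beside 0.02 over all. The difference between the knees was tested directly: the time change of the injured knee exceeded that of the contralateral knee in 29 miRNAs (6.78%), and was smaller in 0 (limma-voom, Benjamini-Hochberg). The log2 difference lay between 1.40 and 4.88. Among the 29, contralateral changes lay between -1.35 and 0.31 with a median of -0.22 (-0.06 without day 7 replicate 1), and 0 had an unadjusted p under 0.05 in the contralateral knee. Of the 29, 21 were of the 12qF1 cluster and 3 of the miR-34 family, which held 48 and 5 of the 428 tested miRNAs.

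For miR-21a-5p the log2 fold change was 1.96 in the injured and 0.21 in the contralateral knee, and the difference of 1.75 passed (adjusted p = 0.0325, limma-voom). For miR-199a-5p the values were 1.36 and -0.16, and the difference of 1.52 passed (adjusted p = 0.0189, limma-voom). In that case the low contralateral value of replicate 1 adds to the difference. Without that library 32 of 451 differences passed, but the differences of single miRNAs are not given without it. miR-335-5p, with 2.34 and -1.14 and a difference of 3.48 (adjusted p = 0.0200, limma-voom), was likewise near 0 in the contralateral knee without replicate 1 (-0.06). miR-34c-5p (2.64 and 0.31), miR-34b-5p (2.56 and -0.01) and miR-34b-3p (3.33 and -0.33) passed as well, whereas miR-27b-3p (0.58 and -0.01) did not. The contralateral means of miR-34b-5p and miR-34b-3p were only 8.97 and 7.76 CPM. All 8 arms of the miR-34 family summed to between 124 and 272 counts in a contralateral library, so their contralateral values rest on few reads. For the miR-17 seed no difference between the knees passed: the values for miR-17-5p, miR-93-5p and miR-106a-5p were 0.73, 0.11 and 0.91, with adjusted p-values of 0.697, 0.959 and 0.562 (limma-voom). miR-486a-5p was lower at day 7 in the injured knee (-1.43, adjusted p = 0.000652, limma-voom), and its difference from the contralateral -0.53 was -0.90 (adjusted p = 0.191).

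**Figure D5:**
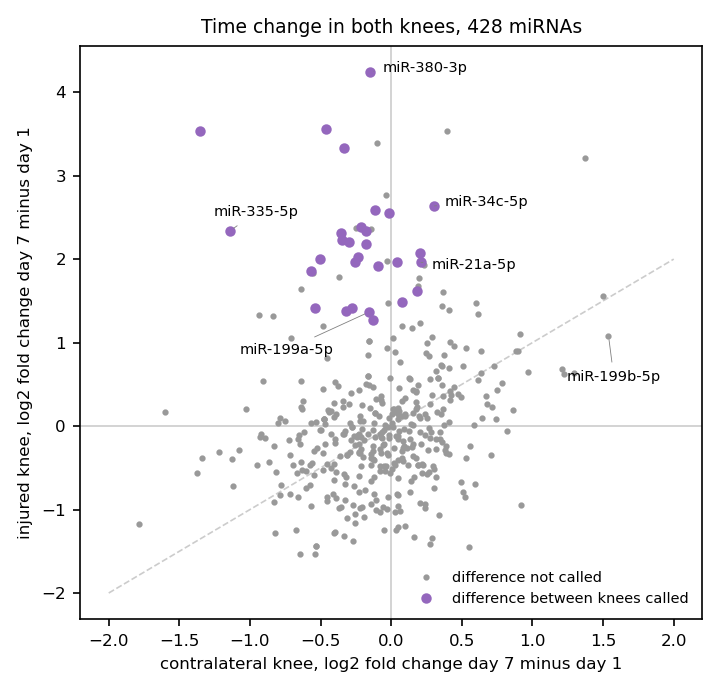
Log2 fold change from day 1 to day 7 of 428 miRNAs in the contralateral knee (horizontal) and the injured knee (vertical), with the line of equal values dashed and the 29 miRNAs whose difference between the knees passed an adjusted p of 0.05 in purple. All 29 lie above the line, with contralateral values between -1.35 and 0.31.

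Both contralateral days were last placed against the naive mice, which they share as controls, so the values stand side by side. By limma-voom, 0 miRNAs were called at day 1 (smallest adjusted p 0.996, 4 at an unadjusted p under 0.05) and 0 at day 7 (smallest adjusted p 0.675, 23 at an unadjusted p under 0.05), where the 6 naive libraries were taken as independent although they share mice. The median absolute log2 fold change was 0.17 at day 1 and 0.28 at day 7, and 63.8% and 50.7% of the intervals lay within 2-fold. All day 7 values here include replicate 1, and this comparison is not given without it. How far the larger departure from naive at day 7, or the values of single miRNAs below, rest on that library was not tested. miR-142a-3p was at -0.27 at day 1 and 0.94 at day 7, miR-17-5p at 0.12 and -1.01, miR-25-3p at 0.29 and -0.53, miR-32-5p at -0.34 and 0.96, and miR-486a-5p at 0.20 and -0.33. For these 5 miRNAs the naive level lay between the days. They were picked with their differences between the days known, which makes this order likely, and it was not counted over all miRNAs.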

How the data were processed

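Per the methods of the study, the authors trimmed adapters with Trim Galore 0.6.6, aligned reads with Bowtie 1.3.0 to the mature sequences of miRBase and counted them with SAMtools 1.12, and the deposited values are raw read counts per mature miRNA with no normalisation. The miRBase release and the treatment of reads that match several miRNAs are not given in the sources used here. Counts were identical in every library within 7 groups of tested miRNAs (15 miRNAs in all). Without molecular identifiers, PCR copies are not independent molecules.

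The number of each library linked its counts to a sample, since the prefix before that number differs between table and sample titles, and groups came from the treatment label. Replicates were numbered in accession order and pair no libraries. The study modelled mouse pools, but the labels do not tie libraries to pools, so libraries were treated as independent. Nothing in the labels says that the pools of a group were processed separately, so p-values measure the spread between these samples.

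Low counts were removed with filterByExpr of edgeR 4.0.16 (minimum count 10, minimum total 15) and libraries were scaled with TMM. In R 4.3.3, limma 3.58.1 (voom, lmFit, eBayes) estimated 1 mean for each group from all 18 libraries, and each contrast was adjusted by Benjamini-Hochberg at a threshold of 0.05. The procedure was tested on simulated data. Alternatives were edgeR's quasi-likelihood test, DESeq2 1.42.0, other scalings and filters, quality weights, robust variance estimates, the library total as a covariate, a fit of the contralateral libraries alone, and leaving out each contralateral library. Distances, arm ratios and sequence comparisons used log2 CPM (prior count 2). Library measures were compared by exact permutation tests. Host genes came from GENCODE on GRCm38, the build of the sequences.

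Named miRNAs were the 12 lowest p-values in each direction at a mean of at least 10 CPM (identical counts taken once), the 10 most abundant, every tested arm of lists with 6 or fewer tested arms, 4 miRNAs named by the study, and the 5 largest ratios of highest to lowest CPM within each day. The members and lists were chosen with earlier results of these data known. miRNAs named outside this rule (seed relatives, second arms, miR-486a-5p, miR-451a and those that led without day 7 replicate 1) were added once their values were known.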

Additional observations from a re-analysis of the deposited data

Results flagged for a closer look

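In 24 miRNAs with the lowest p-values, the 6 naive libraries were examined for 1 that lay far from the rest by Dixon's criterion, which chance meets in about 1 in 20 groups. This was so for 3 of the 24. miR-187-3p was lowest in naive replicate 3, at 6.76 CPM, miR-338-5p was lowest in naive replicate 1, at 31.5 CPM, and miR-25-3p was highest in naive replicate 6, at 5836 CPM. The day groups of 3 libraries are too small for this criterion.

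The time change differed between the injured and the contralateral knee in 29 miRNAs by limma-voom. Among the named miRNAs the log2 difference was 1.52 for miR-199a-5p, 1.75 for miR-21a-5p, 2.33 for miR-34c-5p, 2.57 for miR-34b-5p, 3.66 for miR-34b-3p and 3.48 for miR-335-5p. The number of differences was between 25 and 32 when each contralateral library was left out in turn.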

How the results depend on the processing

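The absence of calls held under every limma and edgeR setting tried, and DESeq2 called 2. The number at an unadjusted p under 0.05 was 25, and it was 12 with library totals only, 45 with every miRNA that had 1 count (1412 tested) and 5 with only the 6 contralateral libraries in the fit. Leaving out each contralateral library in turn gave between 11 and 69, with 69 without day 7 replicate 2, 42 without day 7 replicate 3 and 11 without day 1 replicate 3. No paired analysis was possible because the replicate numbers were given in accession order and the days were different mice. Of 72 named miRNAs, 42 kept their sign in every setting in which they were tested and 30 did not, and all 72 missed the adjusted threshold in the fit of all libraries. miR-199b-5p and miR-1291 passed it in DESeq2. The cause of the sign changes was not tested. Depth limits the miRNAs at a few CPM, which rest on few reads in the shallower libraries.

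Log2 fold changes that turned were as follows. With quality weights they were 0.59 for miR-148a-3p, 0.10 for miR-99a-5p, -0.079 for let-7c-5p, 0.30 for miR-140-5p, -0.020 for miR-200c-3p, -0.015 for miR-9-5p, 0.20 for miR-199a-5p, 0.15 for miR-199a-3p, 0.15 for miR-199b-3p, 0.11 for miR-34b-3p, -0.15 for miR-34a-5p, -0.14 for miR-10a-5p, 0.12 for miR-27b-3p and 0.37 for miR-142a-5p. With CA classes centred, a setting chosen after seeing the data, the values were 0.24 for miR-148a-3p, -0.11 for let-7f-5p, -0.069 for let-7c-5p, 0.19 for miR-140-3p, 0.069 for miR-199a-5p, 0.16 for miR-199a-3p, 0.16 for miR-199b-3p, 0.14 for miR-29b-2-5p, -0.010 for miR-196a-5p, -0.12 for miR-10a-5p, 0.22 for miR-27b-3p and -0.072 for miR-3473e. With library totals only they were -0.029 for let-7f-5p, -0.040 for miR-196a-5p, -0.039 for miR-10a-5p, -0.024 for miR-3473b and -0.040 for miR-3473e. With the log10 library total as a covariate the values were -0.032 for let-7f-5p, 0.12 for miR-34b-5p, -0.0035 for miR-34a-5p, 0.053 for miR-29b-2-5p, -0.12 for miR-196a-5p and -0.028 for miR-3473e. With edgeR they were 0.024 for miR-140-5p, 0.13 for miR-34b-5p, -0.011 for miR-196a-5p, 0.051 for miR-142a-5p, -0.22 for miR-3473b and -0.28 for miR-3473e. With DESeq2 the values were 0.064 for miR-140-5p, 0.20 for miR-34b-5p, 0.038 for miR-10b-5p, 0.049 for miR-27b-3p, 0.089 for miR-142a-5p, -0.10 for miR-3473b and -0.18 for miR-3473e. With DESeq2-type size factors they were 0.037 for miR-34b-5p, 0.0031 for miR-29b-2-5p, 0.045 for miR-10b-5p and 0.050 for miR-27b-3p. With muscle and erythroid miRNAs removed the values were 0.034 for miR-34b-5p, 0.045 for miR-10b-5p and 0.053 for miR-27b-3p. With every miRNA of 1 count they were 0.040 for miR-34b-5p, 0.0018 for miR-29b-2-5p, 0.036 for miR-10b-5p and 0.046 for miR-27b-3p. With only the 6 contralateral libraries the values were 0.072 for miR-34b-5p, 0.018 for miR-29b-2-5p, 0.047 for miR-10b-5p and 0.051 for miR-27b-3p. With at least 10 counts in every library they were 0.011 for miR-10b-5p and 0.017 for miR-27b-3p.

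When each contralateral library was left out in turn, the ranges that crossed 0 were -0.079 to 0.23 for let-7c-5p, -0.12 to 0.20 for miR-10a-5p, -0.091 to 0.19 for miR-10b-5p, -1.03 to 0.0031 for miR-128-3p, -0.16 to 0.10 for miR-140-3p, -0.43 to 0.41 for miR-140-5p, -1.12 to 0.49 for miR-142a-5p, -0.53 to 0.63 for miR-148a-3p, -0.14 to 0.23 for miR-196a-5p, -0.28 to 0.15 for miR-199a-3p, -0.41 to 0.29 for miR-199a-5p, -0.28 to 0.15 for miR-199b-3p, -0.025 to 0.49 for miR-1b-5p, -0.80 to 0.051 for miR-26a-5p, -0.026 to 0.16 for miR-27b-3p, -0.43 to 0.38 for miR-29b-2-5p, -0.094 to 0.86 for miR-29c-5p, -0.38 to 0.88 for miR-3473b, -0.36 to 0.86 for miR-3473e, -0.40 to 0.65 for miR-34a-5p, -0.77 to 0.16 for miR-34b-3p, -0.28 to 0.66 for miR-34b-5p, -0.15 to 1.04 for miR-34c-3p, -1.06 to 0.025 for miR-455-3p, -1.38 to 0.32 for miR-543-3p, -0.99 to 0.10 for miR-7667-5p, -0.0013 to 0.49 for miR-9-5p and -0.43 to 0.18 for miR-99a-5p.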
